A study of Mus musculus with 14 samples.

Results

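The proteasome is the barrel-shaped protease that degrades ubiquitin-tagged proteins in every cell. Its core particle stacks rings of alpha subunits, which gate the channel, and of beta subunits, some of which carry the cutting sites. A regulatory particle of ATPases and non-ATPase subunits recognises, unfolds and feeds in substrates, and other activators can take its place on the core. In T cells the protease supplies peptides for antigen presentation and removes regulators of signalling and of the cell cycle, and its genes are commonly described as housekeeping genes with promoters active in all tissues.

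The chromatin at the genes of this complex was examined here in mouse Th1 cells. Members were protein-coding genes of the RefSeq annotation of GRCm38 whose symbol begins with Psma, Psmb, Psmc, Psmd or Psme followed by a digit, without the 3 immunoproteasome genes Psmb8, Psmb9 and Psmb10. This gave 43 of 21883 protein-coding genes: 8 of the alpha ring, 8 of the beta ring, 6 ATPases, 14 named as non-ATPases, 5 activators and 2 that share the symbol but encode no subunit. The latter are Psmc3ip, which encodes a factor of meiotic recombination, and Psme3ip1, which encodes a partner of the activator PSME3. Psme2b is a short copy of the activator gene Psme2, Psmb11 encodes the beta subunit of cortical thymic epithelium and Psma8 the alpha subunit of testis.

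CUT&RUN, which cuts out the DNA next to an antibody's target with a tethered nuclease, was run on naive CD4 T cells of mouse spleen that had been cultured for 6 days with antibodies to CD3 and CD28, IL-12 at 10 ng/mL and IL-2 at 1 ng/mL. H3K27ac, an acetylated histone mark of active promoters and enhancers, the architectural DNA-binding protein CTCF and the transcription factor ETS1 were each profiled in 2 libraries from C57BL/6J mice (WT) and 2 from the strain C57BL/6J-Ets1-SE-KO (KO), with 1 IgG control library per genotype, 14 in all. The series title places the study's question at the Ets1 locus, and the coordinates of the deletion, the mice's age and their number were not given in the sources used here. By the titles, the KO libraries come from 2 biological replicates, but those of WT are 2 technical replicates of 1, so the WT spread is technical; the deposited names number the 2 CTCF libraries of WT differently, and the titles were followed. A peak was assigned to a gene when it lay within 2 kb of either gene end by at least 1 bp, and the covered length is the sequence under peaks in those windows. An exact two-sided permutation test on 2 and 2 libraries cannot go below p = 0.333, so no gene was tested, and all statements compare the values of these libraries.

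The lists held 24581 to 28647 peaks for H3K27ac and 31368 to 40502 for CTCF. Those for ETS1 were uneven, with 14013 and 23419 peaks for WT and 40705 and 9344 peaks for KO, and the longest of them, KO replicate 1, had the narrowest peaks, with a median of 264 bp against 408 to 465 bp. Read counts are not part of these lists, and the depth behind each value is unknown. Both KO lists of H3K27ac and of CTCF covered more of the genome than both WT lists, and depth, background and occupancy cannot be told apart in them. No member had an IgG peak, but the IgG lists were short, with 2 peaks for WT and 285 for KO. They had a peak at no protein-coding gene in WT and at 0.882% of them in KO. The lack of IgG peaks therefore does not set the members apart from other genes. H3K27ac was called in all 4 lists at 7 of 9 Th1 and CD4 T cell marker genes, among them Cd3e, Cd4 and Tbx21. The 9 genes summed to 19.18 to 23.02 kb per list. Cxcr3 had no peak, and Ifng had 0.154 kb in WT replicate 1 and none in the other lists. The markers of B cells (1 of 4, Cd79a, called in all lists), myeloid cells (1 of 4, Csf1r) and CD8 T and NK cells (1 of 4, Cd8b1) summed to 0.29 to 2.39 kb per class and list. Ms4a1, Pax5, Lyz2, Itgam, Adgre1, Cd8a, Ncr1 and Klrb1c had none. Of these sums, those of CD8 T and NK cells were 0.29 and 0.50 kb (WT) against 1.09 and 0.48 kb (KO), and those of myeloid cells 1.09 and 1.02 kb against 0.98 and 2.39 kb. Of the erythroid markers, Hbb-bt had no peak and Klf1 had 0.405 and 0.463 kb for WT against 0.965 and 0.866 kb for KO, with both KO libraries higher. The part of these cell types in the results was not tested.

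Promoter sequences are shown first, because ETS factors bind a GGAA core that can be looked for in the bases before the start sites. The RefSeq promoter table of GRCm38.p6 had an entry for 36 of the 43 members, of which 23 had ETS1 peaks in all 4 lists. The 250 bases before the start site are given, 5′ to 3′ on the gene's strand, for the 4 of these with the best and the 4 with the lowest rank in the weakest of their ETS1 lists. Only promoters that share at most 5 bases with any annotated gene were taken, 16 of the 23, which leaves out those that run into a neighbouring gene or the gene itself. Capitals mark the hexamer CCGGAA or its reverse complement. The first set, with the best ranks, holds Psmd5 (chr2:34870963-34871212, minus strand), an assembly chaperone of the regulatory particle, Psmc6 (chr14:45329574-45329823, plus), an ATPase, Psme3 (chr11:101315963-101316212, plus), the nuclear activator, and Psmd6 (chr14:14120946-14121195, minus), a non-ATPase subunit.
Psmd5: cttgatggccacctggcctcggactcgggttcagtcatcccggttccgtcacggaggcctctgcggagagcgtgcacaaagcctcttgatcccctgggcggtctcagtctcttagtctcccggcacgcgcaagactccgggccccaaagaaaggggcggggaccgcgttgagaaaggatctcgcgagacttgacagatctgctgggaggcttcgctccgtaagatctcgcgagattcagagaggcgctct
Psmc6: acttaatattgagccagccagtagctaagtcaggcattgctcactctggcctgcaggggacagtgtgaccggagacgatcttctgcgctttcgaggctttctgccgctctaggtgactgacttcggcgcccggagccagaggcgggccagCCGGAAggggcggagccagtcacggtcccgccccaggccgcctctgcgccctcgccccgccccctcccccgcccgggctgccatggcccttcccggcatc
Psme3: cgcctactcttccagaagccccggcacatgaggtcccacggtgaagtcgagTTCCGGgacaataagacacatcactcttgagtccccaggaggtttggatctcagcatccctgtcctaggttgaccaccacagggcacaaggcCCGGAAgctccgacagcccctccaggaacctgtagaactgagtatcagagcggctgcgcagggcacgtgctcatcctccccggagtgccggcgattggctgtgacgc
Psmd6: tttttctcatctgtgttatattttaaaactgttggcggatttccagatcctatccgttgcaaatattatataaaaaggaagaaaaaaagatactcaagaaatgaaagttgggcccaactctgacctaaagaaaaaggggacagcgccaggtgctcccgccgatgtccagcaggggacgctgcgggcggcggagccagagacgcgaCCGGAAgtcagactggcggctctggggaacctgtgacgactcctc

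The second set, with the lowest ranks, holds Psme4 (chr11:30771525-30771774, plus), a large activator of the core, Psma5 (chr3:108256676-108256925, plus), of the alpha ring, Psmb3 (chr11:97703184-97703433, plus), of the beta ring, and Psmc1 (chr12:100109952-100110201, plus), an ATPase.
Psme4: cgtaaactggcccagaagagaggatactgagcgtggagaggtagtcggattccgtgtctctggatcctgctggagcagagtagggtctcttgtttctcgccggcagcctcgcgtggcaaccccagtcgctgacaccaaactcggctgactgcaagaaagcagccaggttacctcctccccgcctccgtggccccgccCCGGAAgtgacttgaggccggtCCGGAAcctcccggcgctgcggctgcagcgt
Psma5: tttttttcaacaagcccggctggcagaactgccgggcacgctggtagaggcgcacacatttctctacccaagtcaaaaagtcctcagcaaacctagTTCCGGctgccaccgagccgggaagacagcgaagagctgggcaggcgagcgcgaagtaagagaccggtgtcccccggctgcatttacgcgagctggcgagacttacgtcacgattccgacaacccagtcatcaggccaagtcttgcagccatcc
Psmb3: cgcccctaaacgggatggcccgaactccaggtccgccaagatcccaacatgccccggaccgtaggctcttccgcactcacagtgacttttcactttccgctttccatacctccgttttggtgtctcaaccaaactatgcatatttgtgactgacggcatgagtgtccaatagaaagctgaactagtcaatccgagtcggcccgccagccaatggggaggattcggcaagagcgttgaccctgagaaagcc
Psmc1: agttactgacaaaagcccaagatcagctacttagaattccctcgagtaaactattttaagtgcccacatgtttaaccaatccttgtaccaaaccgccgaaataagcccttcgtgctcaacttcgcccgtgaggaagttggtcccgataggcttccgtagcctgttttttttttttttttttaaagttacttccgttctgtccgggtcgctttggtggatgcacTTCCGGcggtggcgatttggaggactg

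A rank is the percentage of peaks of the same list that score no higher, so that 100 is the strongest. In the weakest of their 4 ETS1 lists the first set ranked at 92.9 (Psmd5), 88.4 (Psmc6), 85.5 (Psme3) and 82.0 (Psmd6), and the second set at 35.7 (Psme4), 31.9 (Psma5), 24.6 (Psmb3) and 19.9 (Psmc1). The hexamer occurred in 3 promoters of each set, counted over 250 bases before and 50 from the start site. Psmd5, with the best rank, and Psmb3 had none. The matches thus do not order the 8 promoters by rank. The ranked peaks also need not cover the bases shown. At Psmc1 all ETS1 peaks lay past the start site. At Psmb3 the weakest, in KO replicate 2, ran from -828 to -514 bp.

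Over all 36 members the hexamer CCGGAA, on either strand, was present in 18 promoters (50%), against 19.1% of 17491 promoters of protein-coding genes. The octamer CCGGAAGT, which contains the hexamer, was present in 7 (19.4%) against 5.28%. The 27 hexamers lay from position -199 to 22, counted from the match's first base on the gene's strand with -1 as the last base before the start site, and their median position was -45. Of these, 21 lay from -100 onwards, 5 of them past the start site, and 7 members had more than 1. Psme3 and Psmc3ip had 3 each.

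Members with ETS1 peaks in all 4 lists held the hexamer more often than the other members, in 15 of 23 (65.2%) against 3 of 13 (23.1%). Over all genes the shares were 33.9% of 5506 and 12.3% of 11985, and 6.34% of genes with no ETS1 peak in any list held it. All 7 octamers were in members with ETS1 in all 4 lists, namely Psmc1, Psmc2, Psmd6, Psmd12, Psmd13, Psme3 and Psme4, while over all genes the shares were 10.4% and 2.91%. The octamer of Psmc1, at -29, lay under no ETS1 peak. Of the 18 members with the hexamer, 11 and 14 had at least 1 match under an ETS1 peak in the WT lists and 16 and 10 in the KO lists. These promoters also differed in base composition, with a median of 60.3% G and C in members with ETS1 in all 4 lists and 54.3% in the others (62.3% and 52.7% over all genes), and the part of composition was not tested. A match is a description of letters and not a binding site.

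**Figure D1:**
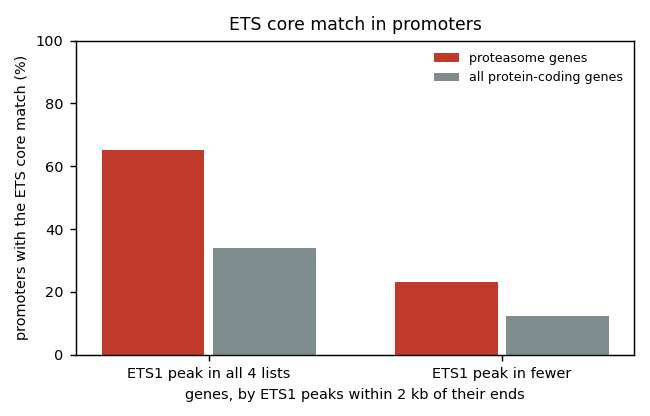
Share of promoters (vertical axis, %) that hold CCGGAA on either strand, for genes with ETS1 peaks in all 4 lists and in fewer, over 36 proteasome genes (red) and 17491 protein-coding genes (grey). The red bars stand at 65.2% and 23.1%, the grey bars at 33.9% and 12.3%.

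Other letters searched on both strands were closer to their background. The CCAAT box bound by NF-Y was present in 15 of 36 members (41.7%; 39.2% of all promoters). TGACNNNGC, the antioxidant response element through which NFE2L1 and NFE2L2 act on proteasome genes, was present in 6 (16.7%; 13.1%). CATGCGC, part of the NRF1 motif, occurred in 3 (8.33%; 4.87%). TATAAA occurred in 3 (8.33%; 13.3%) and CNAGGNGGC, the core of the CTCF motif, in 5 (13.9%; 10.0%). Of these, Psma2, Psma4, Psmc3ip, Psmd5 and Psmd14 held the CTCF core, and of members with CTCF peaks in all 4 lists 3 of 23 did.

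H3K27ac marked most proteasome genes in every library. A peak was called in all 4 lists at 35 of 43 members (81.4%), against 42.6% of all protein-coding genes, and at 39 members in at least 1 list. The members' strongest peaks had a median rank of 84.7 to 88.9 in the 4 lists, while those of all genes with a peak had 78.6 to 81.8. All 6 ATPases, 12 of 14 genes named as non-ATPases, 6 of 8 alpha ring genes, 6 of 8 beta ring genes and 4 of 5 activators were marked in all 4 lists. The tissue-restricted genes Psma8 (testis) and Psmb11 (thymic epithelium) and the copy Psme2b had no peak of any antibody.

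**Figure D2:**
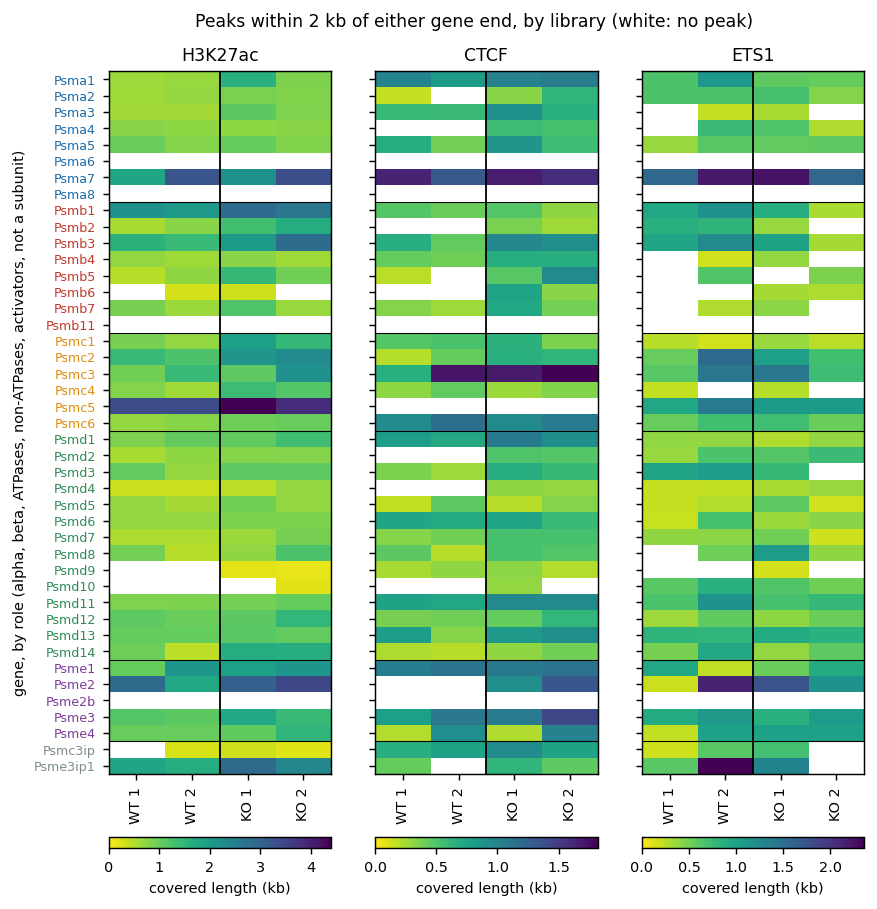
Covered length (colour, kb) within 2 kb of either gene end for each of 43 members (rows, by role) in the 4 lists of each antibody (columns), with a separate colour scale per antibody and white where no peak was called. The rows of Psma6, Psma8, Psmb11 and Psme2b are white in all 12 lists. Psmc5 has the largest H3K27ac covered length over both ends in every list but is white for CTCF.

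At the members with acetylation, the KO libraries tended to have more covered length, through wider peaks, more peaks or both. Psmb2, for example, had 1 and 2 peaks (WT) against 2 and 3 (KO). Both KO libraries lay above both WT libraries at 27 of 39 members with a peak (69.2%), against 49.7% of all genes with a peak, and at no member did both WT libraries lie above both KO libraries (4.84% of genes). One member, Psmd9, was called in both KO lists and neither WT list (1.17% of genes). The median log2 ratio (KO over WT), computed after adding 1 kb to each mean as are all log2 ratios here, was 0.20 for the members and 0.11 for all genes. Restricted to genes called in all 4 lists, both KO libraries were higher at 26 of 35 members (74.3%) and 53.2% of genes, with medians of 0.22 and 0.11. Summed over the members the mark covered 37.6 and 37.9 kb (WT) and 52.0 and 53.2 kb (KO), a ratio of 1.39, where the sums over all genes had a ratio of 1.24. When each list was held to its 24581 top-scored peaks, both KO libraries were higher at 25 of 38 members with a peak (48.1% of genes). Of these 25, 24 were among the 27, and Psmb3, Psmc1 and Psmd12 were lost from the count. At the 35 members the median ratio of KO to WT was 1.32, and the median fold between libraries of a genotype was 1.15 in WT and 1.23 in KO. The WT fold is between technical replicates, and none of these values was tested.

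**Figure D3:**
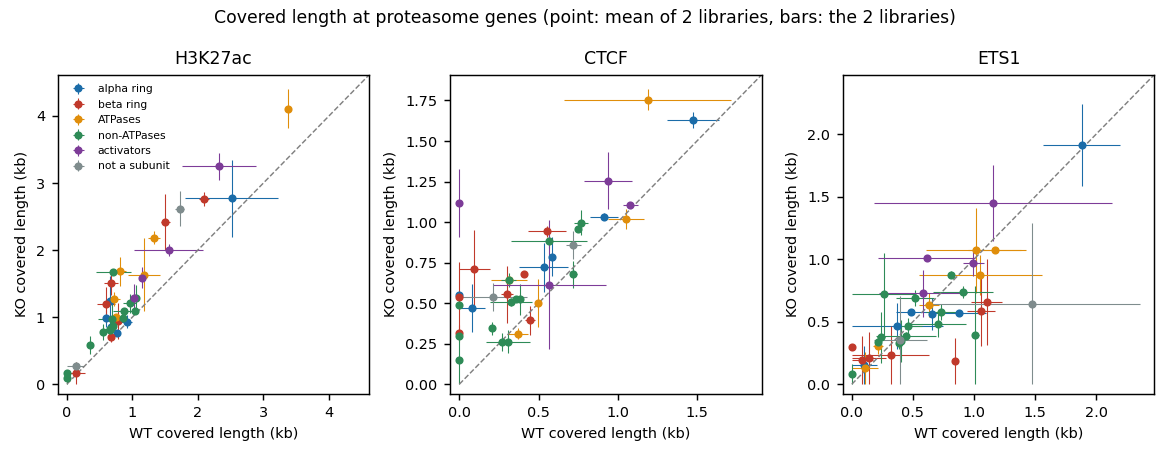
Covered length in KO (vertical axis, kb) against WT (horizontal axis, kb) for the members with a peak, 1 panel per antibody; points are means of 2 libraries, bars reach the 2 libraries, colours give roles and the dashed line marks equality. For H3K27ac the points lie above or on the line, while for ETS1 they scatter on both sides of it.

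Among the alpha ring genes, which form the outer rings of the core, Psma7 had the largest H3K27ac covered length, 1.81 and 3.23 kb (WT) and 2.19 and 3.35 kb (KO). Its libraries overlapped between the genotypes. Its start site lies 19 bp from that of the divergent gene Ss18l1, so the same peak marks both genes. At Psma1 the mark covered 0.638 and 0.674 kb (WT) and 1.61 and 0.873 kb (KO), with both KO libraries higher. Psma4 and Psma5 were among the members with the lowest log2 ratio, at 0.003 and 0.02. Psma4 had 0.777 and 0.746 kb (WT) and 0.747 and 0.783 kb (KO), and Psma5 had 1.00 and 0.821 kb against 1.03 and 0.839 kb. At both genes the genotypes overlapped.

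Psma6 and Psma3, whose subunits sit in the same alpha ring, carried the mark inside the gene, Psma6 there alone and Psma3 there and at a gene end. Psma6 (chromosome 12, 55384222 to 55418459) had no peak of any antibody within 2 kb of its ends. RefSeq places a second start site inside the gene at 55398825, however, and H3K27ac peaks of 784 and 1281 bp in WT and 1997 and 1150 bp in KO had midpoints 101 to 550 bp past it, with ranks of 91.8 to 95.5. CTCF peaks lay there in all 4 lists and ETS1 peaks in 3, all but KO replicate 2. It is this site that is meant by the second start site of Psma6 below. Psma3 (chromosome 12, 70969283 to 70995877) has its listed start site 5340 bp inside the gene. There H3K27ac peaks spanned 1050 and 1118 bp in WT and 1871 and 2234 bp in KO. Psma3 was also marked within 2 kb of its gene ends in all 4 lists, with 0.604 and 0.602 kb (WT) and 1.11 and 0.848 kb (KO). Counted by this second start site, Psma6 would thus be an acetylated member. At 55384222, the start site used for all start site counts here, it had no peak in any list. These internal peaks were picked after their values were seen.

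In the beta ring, the genes of the catalytic subunits were marked unevenly. Psmb5, which encodes the chymotrypsin-like subunit, had 0.467 and 0.738 kb of H3K27ac in WT and 1.45 and 0.932 kb (KO), a log2 ratio of 0.45 and no overlap between the genotypes. Psmb7, the trypsin-like subunit, had 0.906 and 0.659 kb against 1.21 and 0.671 kb, which overlap. Psmb6, the caspase-like subunit, had no peak in WT replicate 1 or KO replicate 2, 0.283 kb in WT replicate 2 and 0.335 kb in KO replicate 1. Psmb6 was the catalytic gene with the least acetylation called, at ranks of 37.9 and 44.3.

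Psmb2, a non-catalytic beta subunit on chromosome 4 (126677637 to 126709715), had one of the 5 highest log2 ratios for H3K27ac, 0.58. It held 0.572 and 0.787 kb (WT) and 1.34 and 1.67 kb (KO), and the genotypes did not overlap. Psmb1 and Psmb3 had more covered length, 2.17 and 2.02 kb against 2.86 and 2.65 kb and 1.57 and 1.44 kb against 2.00 and 2.84 kb, with both KO libraries higher at each. At Psmb3 this no longer held with the same number of peaks in each list. The windows of both also hold ends of neighbouring genes, Tbp for Psmb1 and Pcgf2 and Pip4k2b for Psmb3. Psmb4 had a low ratio of 0.03, with 0.719 and 0.623 kb (WT) and 0.779 and 0.634 kb (KO), which overlap.

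The ATPases, the motor that unfolds substrates, had the highest median log2 ratio of the roles for H3K27ac, 0.34 over 6 genes. Of these, 5 had both KO libraries above both WT libraries, beside 49.7% of all genes with a peak. Psmc1 held 0.904 and 0.707 kb (WT) and 1.90 and 1.47 kb (KO), a log2 ratio of 0.57. Psmc2 held 1.42 and 1.23 kb against 2.10 and 2.28 kb (0.46). Psmc4 held 0.811 and 0.627 kb against 1.379 and 1.17 kb (0.40), and the genotypes did not overlap at any of these 3. Psmc1 was no longer among the members with both KO libraries higher when each list was held to the same number of peaks. Psmc3 was the ATPase whose libraries overlapped, with 0.931 and 1.42 kb (WT) and 1.09 and 2.18 kb (KO). Psmc5 (chromosome 11, 106256185 to 106263112) had the largest H3K27ac covered length of all members, 3.36 and 3.38 kb (WT) and 4.40 and 3.82 kb (KO). The smaller part of it lay at the start site, where peaks ran from -919 to 344 and -857 to 127 bp (WT). In KO they ran from -1222 to 390 and -1024 to 378 bp. The larger part lay at the gene's other end. The windows of Psmc5 hold ends of Ftsj3, whose start site lies 101 bp away on the other strand, and of Smarcd2.

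Of the genes named as non-ATPases, 11 of 14 had both KO libraries higher for H3K27ac, beside 49.7% of all genes with a peak. Psmd14 (chromosome 2, 61711694 to 61800376), which encodes the deubiquitinase of the regulatory particle, had the highest log2 ratio of all members, 0.64. Its peaks covered 0.977 and 0.438 kb (WT) and 1.67 and 1.66 kb (KO), so the WT libraries differed from each other by more than the KO libraries and all KO values lay above both. Psmd1, a scaffold subunit, had 0.864 and 1.06 kb against 1.07 and 1.35 kb, close to overlap. Psmd4, a ubiquitin receptor, had 0.348 kb in both WT libraries and 0.454 and 0.714 kb (KO). Psmd13 had a ratio of 0.04, with 1.03 kb in both WT libraries against 1.13 and 1.06 kb (KO).

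Of the assembly chaperones among these genes, Psmd9 and Psmd10 lacked H3K27ac in some lists. Psmd9 had no H3K27ac in WT and 0.184 and 0.156 kb (KO), and Psmd10 had a peak of 0.194 kb in KO replicate 2 alone, at a rank of 0.17, the bottom of its list. Psmd5, also a chaperone, was marked in all 4 lists, with 0.72 and 0.589 kb (WT) and 0.94 and 0.72 kb (KO). The 3 chaperone genes thus ranged from a call in 1 list to a call in all 4.

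Among the activators, Psme1 and Psme2 encode the interferon-inducible cap of the core. Psme2 held 2.88 and 1.76 kb of H3K27ac in WT and 3.05 and 3.45 kb (KO), with a log2 ratio of 0.36 and no overlap. Psme1 held 1.03 and 2.08 kb against 1.91 and 2.08 kb, which overlap. Psme3 held 1.18 and 1.10 kb against 1.74 and 1.44 kb, and Psme4, of the large nuclear activator, 1.03 and 1.02 kb against 1.07 and 1.497 kb. Both KO libraries were higher at Psme2, Psme3 and Psme4. Of the genes that only share the symbol, Psme3ip1 had 1.795 and 1.66 kb against 2.88 and 2.36 kb, and Psmc3ip had none in WT replicate 1, 0.268 kb in WT replicate 2 and 0.327 and 0.21 kb (KO).

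ETS1 was called at most acetylated members, without a common direction between the genotypes. Peaks were called in all 4 lists at 26 of 43 members (60.5%), against 30.5% of all genes. Among acetylated genes the shares were close, 25 of 35 members (71.4%) and 67.6% of genes. Both KO libraries were higher at 3 members (Psmd4, Psmd13 and Psmb6) of 39 with a peak, against 5.35% of genes, and both WT libraries at 5 (Psmd1, Psmb2, Psma1, Psmd3 and Psmb1), against 9.94%. Among acetylated members both KO libraries were higher at 2 of 35, against 6.53% of acetylated genes. The median log2 ratio was 0.01 for the members and 0.01 for all genes. Both KO libraries and no WT library had a call at 1 member, Psmb6 (0.58% of genes).

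These counts hang on the uneven ETS1 lists. Summed over the members ETS1 peaks covered 17.9 and 31.03 kb (WT) and 27.1 and 18.1 kb (KO), so WT replicate 2 and KO replicate 1, the longer lists of each genotype, were the higher ones. The median fold between libraries at members called in all 4 lists was 1.47 in WT and 1.36 in KO, and the ratio of KO to WT ran from 0.553 to 1.64 with a median of 0.98. Without KO replicate 1, both WT libraries lay above the remaining KO library at 13 of 38 members with a peak (44.8% of genes). Without WT replicate 1, the remaining WT library lay above both KO libraries at 20 of 39 (39.7% of genes). Without WT replicate 2, both KO libraries lay above the remaining WT library at 16 of 39 (24.5% of genes). Without KO replicate 2, the remaining KO library lay above both WT libraries at 17 of 39 (52.7% of genes).

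The best-ranked ETS1 peaks in the weakest of 4 lists were at Psmd5, Psmb1, Psmc5, Psmc3 and Psmc6. At Psmd5 they covered 0.21 and 0.268 kb (WT) and 0.581 and 0.167 kb (KO), at ranks of 92.9 to 99.7. Those at Psmb1 covered 0.946 and 1.17 kb against 0.867 and 0.304 kb, at ranks of 90.2 to 98.2. Psmb1 was thus among the highest ranks and also among the lowest log2 ratios, at -0.38. Psmc5 had 0.949 and 1.39 kb (WT) and 1.08 and 1.07 kb (KO), Psmc3 0.611 and 1.43 kb against 1.41 and 0.728 kb, and Psmc6 0.551 and 0.713 kb against 0.726 and 0.535 kb. At these 3 ATPase genes the genotypes overlapped.

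The lowest ETS1 ratios were at Psmb2, with 0.865 and 0.822 kb (WT), 0.368 kb in KO replicate 1 and no peak in KO replicate 2, and at Psmd3, a non-ATPase subunit, with 0.981 and 1.04 kb (WT), 0.783 kb in KO replicate 1 and none in KO replicate 2. Psmb2 stood at -0.64 and Psmd3 at -0.53, and at both genes H3K27ac was higher in both KO libraries. KO replicate 2 is the list with the fewest ETS1 peaks. Psme3ip1 (-0.59) had 0.599 and 2.36 kb against 1.29 kb and none, and Psmb3 (-0.34) had 0.975 and 1.23 kb against 0.998 and 0.315 kb, with overlap between the genotypes at both.

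The highest ETS1 ratios were at Psmd8 (0.45), Psmb6 (0.38), Psme4 (0.32), Psme2 (0.18) and Psmd2 (0.16). Psmd8 had no peak in WT replicate 1, 0.525 kb in WT replicate 2 and 1.052 and 0.39 kb (KO). Psmb6, at which acetylation was weak, had no ETS1 peak in WT and 0.314 and 0.288 kb (KO). Psme4 had 0.216 and 1.01 kb (WT) and 1.01 and 1.00 kb (KO), and Psme2 had 0.185 and 2.13 kb against 1.75 and 1.15 kb. Psmd2, a scaffold subunit, had 0.363 and 0.672 kb against 0.629 and 0.752 kb. Of these, Psmb6 had no overlap between the genotypes. Psmd10 stood apart in another way, with ETS1 in all 4 lists (0.608 and 0.857 kb (WT), 0.641 and 0.511 kb (KO)) and H3K27ac in KO replicate 2 alone.

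CTCF was called in all 4 lists at 28 of 43 members (65.1%), against 42.8% of all genes. Among acetylated genes it was called in all 4 lists at 26 of 35 members (74.3%) and at 75.8% of genes. Both KO libraries were higher at 24 of 38 members with a peak (63.2%), against 56.7% of genes, and both WT libraries at none (2.54% of genes). Among acetylated genes with a CTCF peak the figures were 22 of 34 members (64.7%) and 63.5% of genes. The median log2 ratio was 0.18 for the members and 0.18 for all genes. The sums over members were 17.2 and 17.4 kb (WT) and 26.6 and 26.5 kb (KO), a ratio of 1.53, against 1.43 over all genes. For CTCF the members thus stood near other acetylated genes on each of these counts.

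Calls of CTCF in both KO lists and neither WT list occurred at 6 members (14.0%), against 4.41% of genes: Psmd4, Psmb2, Psma4, Psmb6, Psme2 and Psmd2. Among acetylated genes the figures were 5 of 35 members (14.3%) and 6.71% of genes. At Psme2, peaks covered 0.91 and 1.33 kb (KO), the highest CTCF ratio of the members at 1.08. At Psma4 they covered 0.571 and 0.53 kb, at Psmb6 0.754 and 0.326 kb, and at Psmd2 0.50 and 0.482 kb. At Psmd4 they covered 0.299 and 0.298 kb and at Psmb2 0.366 and 0.262 kb. Most of these were weak peaks of their lists, with ranks of 4.11 and 14.3 at Psmb2, 12.9 and 6.75 at Psma4, 25.6 and 18.8 at Psme2, 24.5 and 25.5 at Psmd2, 54.2 and 24.04 at Psmd4 and 37.2 and 59.9 at Psmb6. The KO lists are the longer ones for CTCF. With 31368 top-scored peaks kept in each list, 3 members remained in the count, against 1.91% of genes. Both KO libraries were then higher at 18 of 35 members with a peak (48.0% of genes) rather than at 24.

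The strongest CTCF peaks were at Psmc3ip, Psmd6, Psmc4, Psma7 and Psmc6, by the rank in the weakest of 4 lists. At Psmc4, an ATPase gene, CTCF covered 0.31 and 0.436 kb (WT) and 0.276 and 0.347 kb (KO), at ranks of 80.2 to 98.2. Psmd6 had 0.743 and 0.698 kb against 0.759 and 0.595 kb, and at Psmc6 0.938 and 1.16 kb against 0.957 and 1.08 kb. Psma7 had 1.64 and 1.31 kb against 1.68 and 1.58 kb. The genotypes overlapped at these 4 genes, while Psmc3ip had 0.672 and 0.765 kb (WT) and 0.943 and 0.772 kb (KO), with both KO libraries higher. Psmc4, Psmd6 and Psmc6 were also among the 5 members with the lowest CTCF ratio, at -0.07, -0.04 and -0.02, with Psmb1 (-0.05; 0.478 and 0.415 kb against 0.485 and 0.304 kb) and Psmd5 (-0.05; 0.167 and 0.449 kb against 0.192 and 0.335 kb).

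The catalytic genes differed for CTCF as well. Psmb5 had 0.191 kb in WT replicate 1, no peak in WT replicate 2 and 0.475 and 0.951 kb (KO), a log2 ratio of 0.64. Psmb7 had 0.341 and 0.265 kb (WT) and 0.731 and 0.377 kb (KO). Both KO libraries were higher at all 3 catalytic genes, Psmb6 included, beside 56.7% of all genes with a CTCF peak. Psmc5, with the largest H3K27ac covered length over both ends, had no CTCF peak in any list. Psme1 had 1.03 and 1.12 kb against 1.08 and 1.12 kb, Psme3 0.786 and 1.09 kb against 1.08 and 1.43 kb, and Psme4 0.213 and 0.924 kb against 0.216 and 1.01 kb, with overlap at each.

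Peaks of the 3 antibodies sat together at the start sites. Among 36 members with a listed start site, H3K27ac peaks covered it at 28 and 28 members in WT and 29 and 30 in KO, CTCF at 15 and 18 against 25 and 28, and ETS1 at 17 and 23 against 28 and 19. The start site was covered in all 4 lists at 27, 13 and 10 members. For each member and list the strongest peak within 2 kb of the start site was taken. Its midpoint lay at a median of 171 bp past the start site for H3K27ac, 29.5 bp before it for CTCF and 61 bp past it for ETS1. Within 500 bp of the start site lay 114 of 124 such midpoints for H3K27ac, 103 of 108 for CTCF and 115 of 117 for ETS1. Peaks farther away, such as the stronger CTCF peaks at the other end of Psme3, do not enter these values. At the other end of the 29 members longer than 4 kb, few peaks were called, at 5 to 8 members per list for H3K27ac, 3 to 5 for CTCF and 0 to 3 for ETS1. None of these start site values was computed over other genes, so how they compare with other acetylated promoters is unknown.

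**Figure D4:**
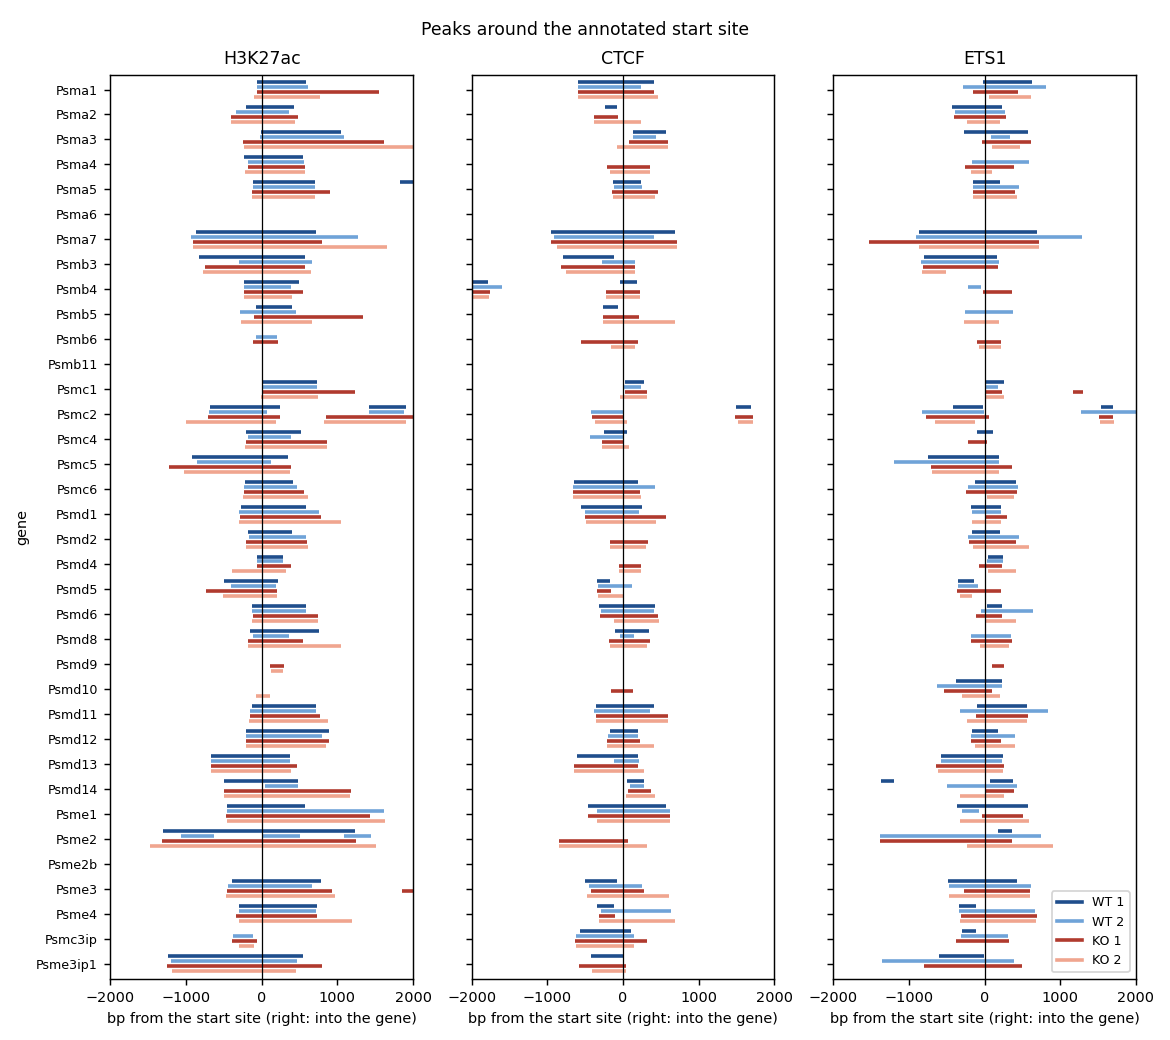
Peaks of the 4 lists (bars, by colour) from 2000 bp before to 2000 bp past the listed start site of 36 members (rows), 1 panel per antibody, with the gene to the right. Most bars touch the line at 0, and Psma6, Psmb11 and Psme2b are empty at their listed start sites.

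Wherever a member had both ETS1 and H3K27ac peaks in libraries of the same genotype and number, the peaks touched, at 29 and 35 members in WT and 37 and 29 in KO. CTCF touched H3K27ac at 28 of 29 and 26 of 27 members in WT and 36 of 37 and 35 of 36 in KO. The exceptions were Psmb5, Psmb4 and, in both KO pairs, Psmd9. Touching peaks were not counted over other genes, so these counts are not shown to be particular to the members. All 3 antibodies were called in all 12 lists at 20 of 43 members (46.5%), against 24.1% of all genes, and at 20 of 35 acetylated members (57.1%), against 56.5% of acetylated genes. No peak in any of the 12 lists was found at 4 members (9.30%), against 31.6% of genes. In calls across all 12 lists the members thus differed from genes at large, and not from genes with H3K27ac in all lists.

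Other genes of the pathway were also marked at most members of their list. Of 22 listed, 21 were matched, among them the immunoproteasome genes, assembly chaperones, ubiquitin receptors and the factors that control proteasome genes. H3K27ac was called in all 4 lists at 19 of 21, CTCF at 14 and ETS1 at 16, and both KO libraries were higher for H3K27ac at 13 of 19 with a peak. Their median log2 ratio for H3K27ac was 0.12 and their sums had a ratio of 1.23 between KO and WT, near the 0.11 and 1.24 of all genes and below the 0.20 and 1.39 of the members. No member of that list had both WT libraries higher for H3K27ac, and 3 did for ETS1. Psmb8, the inducible counterpart of Psmb5, had 4.30 and 4.97 kb of H3K27ac in WT and 7.19 and 6.11 kb (KO), and Psmb10, the counterpart of Psmb7, 1.40 and 1.62 kb against 2.02 and 1.93 kb, without overlap at either. Psmb9, the counterpart of Psmb6, had 3.16 and 3.22 kb against 3.15 and 3.403 kb, which overlap. Nfe2l1, which encodes the factor that induces proteasome genes when the protease is inhibited, had 1.22 and 1.27 kb against 2.09 and 1.43 kb. Psmf1 and Ecpas had no peak at their annotated ends.

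Genes with symbols of ribosomal proteins, a class known for promoters active in most cells, were used as a second comparison. They were taken by symbol alone, 101 in the cytosolic set and 78 in the mitochondrial set. The cytosolic set therefore also holds genes that share the symbol but encode no ribosomal protein, such as kinase genes. For H3K27ac, both KO libraries were higher at 67 of 90 genes with a peak in the cytosolic set (74.4%) and 41 of 75 in the mitochondrial set (54.7%). The shares were 69.2% for proteasome genes and 68.4% for the other pathway genes. The median log2 ratio for H3K27ac was 0.27 for the cytosolic and 0.12 for the mitochondrial set. The sums had KO to WT ratios of 1.49 and 1.29. The cytosolic set thus stood above the proteasome genes, with 0.20 and 1.39, and the mitochondrial set below them. Calls in all 4 lists stood at 86.1% and 88.5% for H3K27ac, 62.4% and 74.4% for CTCF and 61.4% and 66.7% for ETS1. The proteasome genes, at 81.4%, 65.1% and 60.5% for the same antibodies, stood near them. CTCF calls in both KO lists and neither WT list occurred at 9.9% of the cytosolic and 5.13% of the mitochondrial set, beside 14.0% of proteasome genes.

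**Figure D5:**
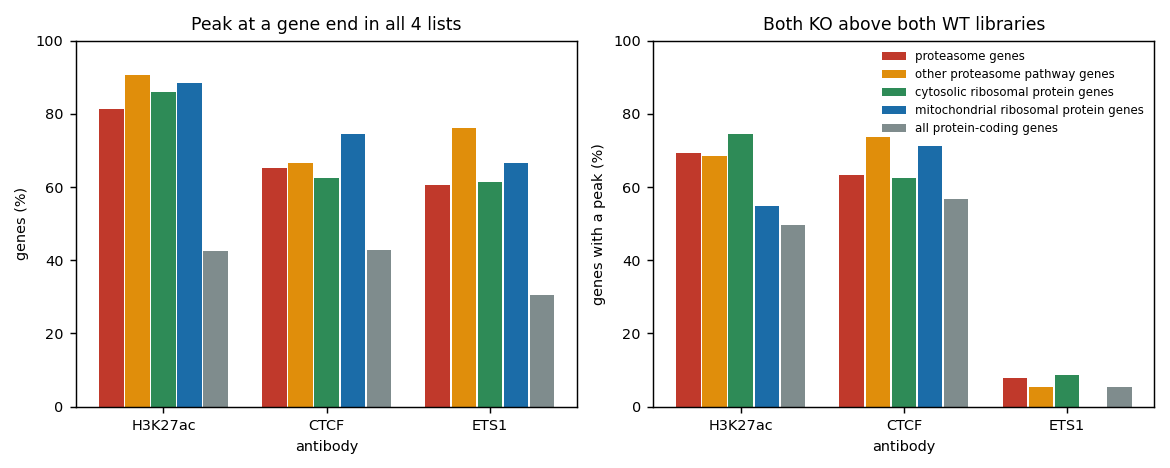
Share of genes with a peak at a gene end in all 4 lists (left, %) and share of genes with a peak at which both KO libraries exceeded both WT libraries (right, %), by antibody, for proteasome genes and 4 comparison sets. The bars of proteasome genes stand at 81.4%, 65.1% and 60.5% on the left and at 69.2%, 63.2% and 7.69% on the right, and the grey bars of all protein-coding genes are lower on the left for each antibody.

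The members were spread over 16 chromosomes, with 10 on chromosome 11 and 6 on chromosome 14, and no pair of members had touching windows. At 20 members the windows also held an end of another protein-coding gene, so a peak there may belong to the neighbour. At 6 of them the neighbour starts on the other strand within 1 kb, namely Ss18l1 for Psma7, Sirt3 for Psmd13, Ftsj3 for Psmc5, Mrpl32 for Psma2, Rspry1 for Psme3ip1 and Rnf31 for Psme2. Among the 23 members without such a neighbour, H3K27ac was called in all 4 lists at 20, CTCF at 16 and ETS1 at 16. The shares over all genes were 42.6%, 42.8% and 30.5%. Both KO libraries were higher for H3K27ac at 17 of 22 with a peak, against 49.7% of all genes with a peak. No share was computed over genes without a neighbour.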

How the data were processed

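Each library is represented by the authors' list of peaks with 9 columns and no header. The submitters' processing notes name the aligner BWA and the build GRCm38, and the peaks are named as MACS2 names its output, per the deposited contents. Versions, options and use of a control were not given in the sources used here. The deposited score, the ratio of enrichment (fold) and the −log10 p and −log10 q columns were written by the authors' caller within each list, and here they only ranked peaks in their own list. The lists give no counts, so depth is unknown and no interval was computed. Chromosomes 1 to 19, X and Y were used.

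Genes, promoters and start sites came from RefSeq tables of GRCm38.p6, and genes without a listed promoter were left out of start site values. Covered length and peak numbers within 2 kb of gene ends were computed with Python 3.11.15, numpy 2.4.6 and pandas 2.3.3 and tested on simulated data. Log2 ratios compare genotype means after 1 kb was added. No test was run. Named genes were those without H3K27ac in at least 1 list, the 5 highest and 5 lowest ratios per antibody, the 5 best ranks for CTCF and ETS1, calls in a single genotype, the catalytic, tissue-restricted and activator genes and Psmc3ip; other genes were picked after their values were seen. Members, lists, motifs and rules were chosen with earlier results of these data known. The promoters shown were further limited, after the sequences were seen, to those that share at most 5 bases with a gene. Alternatives changed windows, peak numbers, ranks, members, added length and libraries. One marker gene is not reported here.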

Additional observations from a re-analysis of the deposited data

How the results depend on the processing

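Of 185 alternative values, 154 stayed within 1.5 times the count or within 1 SD of the median reported, and 31 moved. The replicate SD used was 0.036 for H3K27ac, 0.033 for CTCF and 0.203 for ETS1. With so wide an SD all 15 alternative ETS1 medians counted as staying, also those of changed sign, so that label says little for ETS1. No median changed sign other than that of ETS1, which was -0.10 to 0.11 when a library was left out in turn. The H3K27ac median log2 ratio of 0.20 was 0.16 with windows of 1 kb, 0.26 with 5 kb, 0.27 over the gene body, 0.16 around the start site alone and 0.38 with 0.1 kb added; that of CTCF, 0.18, was 0.48 with 0.1 kb added. The report has no member with both WT libraries higher for CTCF. There was 1 with 5 kb windows (2.74% of genes) and 1 with equal numbers of peaks (4.2%). Another setting, peaks ranked above 50 in their list, also gave 1 (2.59%). Among those peaks, CTCF was called in all lists at 11 members (20.4% of genes). Both KO libraries were higher for CTCF there at 10 of 27 with a peak (49.9% of genes). For ETS1 both KO libraries were higher there at 1 of 38 (3.81%) and both WT libraries at 2 (9.74%). With 5 kb windows both WT libraries were higher for ETS1 at 3 members (8.93% of genes), and around the start site at 2 (11.9%). CTCF calls in both KO lists alone fell to 3 members with equal numbers of peaks. Over the 23 members that share no window, CTCF was called in all lists at 16 (42.8% of all genes). Both KO libraries were higher for CTCF at 13 of 22 with a peak (56.7%). For H3K27ac the counts were 20 (42.6%) and 17 of 22 (49.7%), and ETS1 was called in all lists at 16 (30.5%). Fewer members were counted here, and the shares are over all genes, with or without a neighbour. Where a cause is not given by construction, the cause was not tested.

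Leaving out each library in turn gave H3K27ac medians of 0.20 to 0.24 and CTCF medians of 0.16 to 0.23. Members with both WT libraries higher ranged from 0 to 4 for CTCF (4.47% to 10.6% of genes). For ETS1 they ranged from 6 to 20 (12.5% to 44.8% of genes). Members with both KO libraries higher for ETS1 ranged from 4 to 17 (7.58% to 52.7% of genes). For H3K27ac both KO libraries were higher at 31 to 33 of 38 or 39 members with a peak (61.9% to 67.3% of genes). For CTCF this held at 26 to 31 of 37 or 38 (66.5% to 75.5% of genes). A looser definition with fewer libraries favours these counts. Leaving out Psmc3ip, Psme3ip1 and Psme2b, an alternative chosen after seeing the data, moved no value. The alternatives for CTCF calls in both KO lists alone were also added after seeing the data. No paired analysis was possible because no test was run and the WT libraries are technical replicates of 1 biological replicate. Depth is unknown, and peak width depends on it.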

Other observations

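Psmb7 held more peaks along its gene body than at its ends. Over the gene with 2 kb flanks, H3K27ac covered 3.34 and 2.88 kb (WT) and 5.30 and 3.90 kb (KO), and CTCF covered 3.23 and 2.41 kb against 3.37 and 2.88 kb. For H3K27ac both KO libraries lay above both WT libraries, and for CTCF the genotypes overlapped.

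Psma3 had a second group of H3K27ac peaks before its annotated gene start, of 604 and 602 bp in WT and 849 and 848 bp in KO, with ranks of 94.3 to 97.4. Both KO libraries were higher.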
